A study of Mus musculus with 3 samples.

Results

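Nuclear-encoded subunits of oxidative phosphorylation were read in cancer stem cell spheroids (CSCsp) of 4T1, a mouse triple negative breast cancer line. Members were the genes named Nduf, Sdh, Uqcr, Cox4 to Cox8 and Atp5 in the deposited transcript annotation, without pseudogenes. They numbered 81 of 24402 named genes and 109 RefSeq transcripts, and 76 of the 81 reached an FPKM (fragments per unit of transcript length and of sequencing depth) of 1 in at least 1 library, as did 10464 genes in all. The library labelled R came from CSCsp exposed to tumor antigen primed splenocytes whose activation was reinforced with anti-CD3/CD28 beads and IL2. The library labelled P came from CSCsp exposed to primed splenocytes held in saline, and the library labelled N from CSCsp alone. Splenocytes were taken from female Balb/c mice that were injected with 4T1 cells at 8 weeks of age and carried tumors for 28 days. Exposure lasted 2 days, and all CSCsp were grown for 7 days without attachment and kept on a 40 µm strainer. RNA of 4 independent experiments was multiplexed in equal amounts, and each condition has 1 library of values here, so no difference below has a replicate check, an SD or a p-value.

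The labels N and P are uncertain. Among 37 markers of leukocytes, 13 had an FPKM of at least 1 in R, 4 in P and 12 in N, although N is labelled as free of splenocytes. Ptprc (CD45), the antigen that defines leukocytes, stood at 0.306 FPKM in R, was listed at 0 in P and stood at 0.201 FPKM in N. Lyz2, the lysozyme of myeloid cells, stood at 6.51, 0.313 and 28.9 FPKM in R, P and N. Among the 15 markers that reached an FPKM of 1 in any library, 14 were lower and 1 higher in P than in N. The higher one was Itgb2, at 33.4, 35.9 and 26.3 FPKM in R, P and N. Lcp1 was nearly level, at 12.31, 12.05 and 12.41 FPKM in R, P and N. The deposited files are worded the other way round from the labels, with the name of the N file pointing to saline and that of the P file to no treatment. The file names assigned no library to a group. All directions between N and P below go by the labels, and values with N and P exchanged were also computed. In bulk RNA, fewer cells of a type and less RNA per cell cannot be told apart. The epithelial keratins Krt8 and Krt18 mark 4T1 cells. They stood at 467 and 528 FPKM in R, 554 and 653 FPKM in P, and 651 and 779 FPKM in N. The list of 4T1 epithelial markers held 7 that reached an FPKM of 1, with 1 higher and 6 lower in R than in N. The higher one was Cdh1, at 100.7 FPKM in R, 75.5 in P and 84.9 in N. Cldn4 stood highest in P, at 259.8, 367.5 and 348.7 FPKM in R, P and N. The libraries held about 19178982 (R), 17887652 (P) and 17894139 (N) fragments. Of these, members took 94600, 85775 and 91471 in R, P and N.

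Oxidative phosphorylation takes place in the inner mitochondrial membrane. Complex I (NADH dehydrogenase) and complex II (succinate dehydrogenase) pass electrons to ubiquinone, complex III passes them on to cytochrome c, and complex IV hands them to oxygen. Complexes I, III and IV pump protons as they do so, and complex V (ATP synthase) uses the proton gradient to make ATP. A few core subunits are encoded in mitochondrial DNA and all others, the ones described here, in the nucleus. In tumor spheroids the balance between respiration and glycolysis is a common subject of study, and the factors NRF1, GABPA (of the ETS family) and YY1 are known regulators of nuclear subunit genes.

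To show what the promoters of such genes look like, 300-base windows, 250 bases before the start and 50 after it, were read from RefSeq (GRCm38.p6). Shown are examples picked from the members with a motif. Their ratio R over N was among the highest or lowest of their complex, or, for Atp5g2, of the lowest members overall. Other members with a motif met the same terms and are not shown, Atp5k, Cox8a and Sdhd among them. Capitals mark the motif of NRF1 (GCATGCGC), ETS factors (CCGGAAG) or YY1 (AAGATGGC) on either strand. The windows are chr13:114388045-114388344 (minus strand) for Ndufs4, chr4:140961021-140961320 (plus strand) for Sdhb, chr4:116075021-116075320 (minus strand) for Uqcrh and chr15:102670998-102671297 (minus strand) for Atp5g2.
Ndufs4: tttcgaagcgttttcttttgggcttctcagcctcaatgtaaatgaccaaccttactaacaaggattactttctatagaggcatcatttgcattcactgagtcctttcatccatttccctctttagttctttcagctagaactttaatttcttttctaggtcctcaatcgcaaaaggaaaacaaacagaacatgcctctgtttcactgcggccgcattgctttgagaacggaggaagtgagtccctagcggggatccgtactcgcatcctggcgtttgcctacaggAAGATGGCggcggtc
Sdhb: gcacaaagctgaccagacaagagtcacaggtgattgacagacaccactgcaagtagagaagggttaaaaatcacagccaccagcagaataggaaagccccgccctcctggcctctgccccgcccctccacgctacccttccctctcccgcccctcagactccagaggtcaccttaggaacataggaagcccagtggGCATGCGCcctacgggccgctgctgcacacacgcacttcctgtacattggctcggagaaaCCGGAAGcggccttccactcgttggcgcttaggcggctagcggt
Uqcrh: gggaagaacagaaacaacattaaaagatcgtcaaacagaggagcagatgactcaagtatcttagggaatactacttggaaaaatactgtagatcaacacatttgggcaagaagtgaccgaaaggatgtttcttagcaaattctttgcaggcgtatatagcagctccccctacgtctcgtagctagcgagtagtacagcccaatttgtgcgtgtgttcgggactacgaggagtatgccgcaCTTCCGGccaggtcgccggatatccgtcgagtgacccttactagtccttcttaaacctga
Atp5g2: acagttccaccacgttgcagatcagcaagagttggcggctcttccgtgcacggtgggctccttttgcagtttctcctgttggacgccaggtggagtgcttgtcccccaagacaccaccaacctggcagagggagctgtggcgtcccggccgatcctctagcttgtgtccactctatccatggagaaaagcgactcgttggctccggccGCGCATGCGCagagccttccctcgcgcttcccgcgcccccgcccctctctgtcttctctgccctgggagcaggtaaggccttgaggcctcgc

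Of the 76 members, 65 had such a window. In 63 of those windows the start used lay within 100 bases of the start of the member's highest transcript. The NRF1 motif stood in 10 of the 65 windows (15.4%), against 6.01% of the 8270 windows of all genes. The YY1 motif also stood in 10 (15.4%, against 5.14%), and the ETS motif in 15 (23.1%, against 20.7%). Motifs of different factors did not overlap in any member, and 5 members held both NRF1 and ETS motifs, Sdhb among them. In Sdhb the NRF1 motif began 54 bases before the start and the ETS motif at base 7 after it. Ndufs4 held its YY1 motif at base 36. Uqcrh held its ETS motif 10 bases before the start, on the other strand. In Atp5g2 the NRF1 motif matched on both strands, from 42 and from 40 bases before the start, in overlapping letters. Members with a YY1 motif had a median of 0.23 on the log2 scale in R over N, against 0.05 for the 55 without. Those with an NRF1 motif had 0.02, against 0.11 for the 55 without. Most members with a YY1 motif belong to complex I, whose own median was 0.17, and most with an NRF1 motif do not. Motif and complex were not separated, and the part of either in these medians was not tested. These motifs are matches of letters only. The transcript of Yy1 itself stood at 15.2 FPKM in R, 26.2 in P and 22.6 in N, and Nrf1 at 9.53, 8.80 and 7.90 FPKM in R, P and N.

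Subunit genes differed little between libraries. Their median FPKM was 57.1 in R, 47.9 in P and 51.7 in N, and they took 1.98%, 1.92% and 1.99% of the FPKM of all named genes in R, P and N. The log2 ratio of FPKM plus 0.1 had a median of 0.08 over members for R over N, beside 0.09 over all genes. It was -0.07 for P over N, beside 0.02, and 0.16 for R over P, beside 0.05. Genes of like length or level came closer in P over N. With a longest transcript under 1000 bases, the median was -0.07 for members and -0.09 for all genes. With a mean FPKM of at least 100 it was -0.105 for members and -0.09 for all genes. The interquartile range for R over N was 0.28 on the log2 scale among members and 0.48 among all genes. The 3 comparisons share libraries, so they are not independent of each other.

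**Figure D1:**
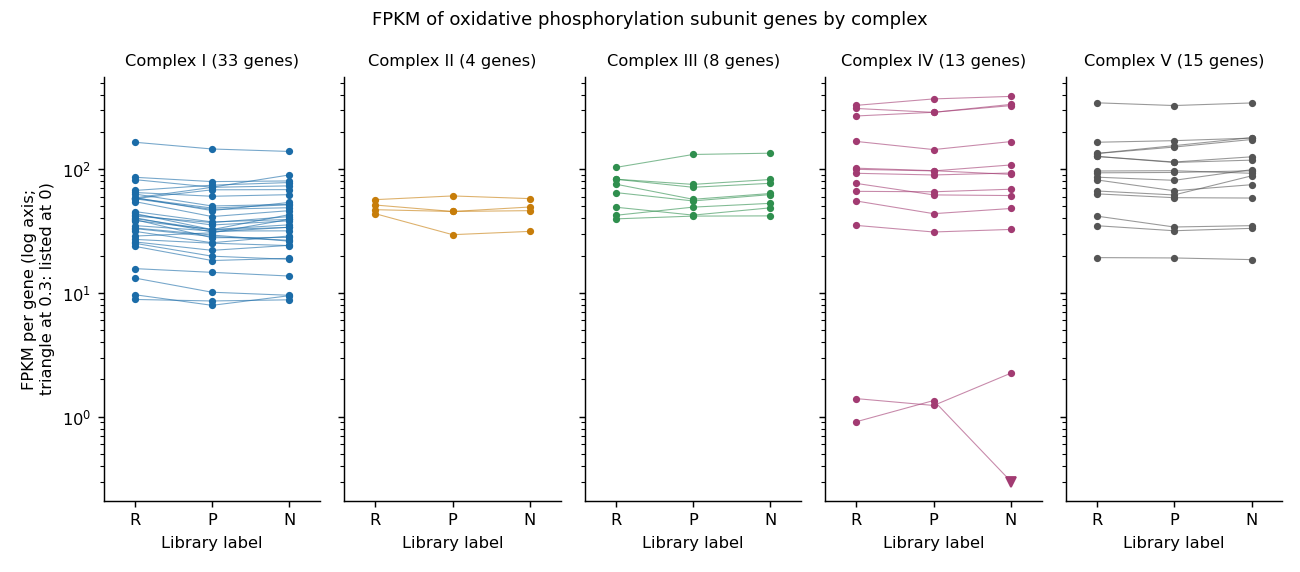
FPKM of the 73 members of complexes I to V with an FPKM of at least 1 in any library, on a log axis, with 1 point per gene and library and lines joining the points of a gene. Most complex I genes stand highest in R, while the most abundant genes of complex IV do not, and the triangle is Cox8b, listed at 0 in N.

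Members were counted where they stood at least 25% above or at least 20% below the other library. For R over N, 7 of 76 members were counted as higher (all genes 25.4%) and 8 as lower (all genes 14.6%). For P over N, 1 was higher (all genes 14.1%) and 5 were lower (all genes 14.0%). For R over P, 12 were higher (all genes 25.3%) and 3 lower (all genes 17.0%). Low genes differ more through counting error alone, so the same counts were made from 20 FPKM. For R over N, 5 of 67 such members were higher (7.46%) and 7 lower (10.4%), beside 17.2% and 13.2% of 2752 such genes in all. A 2-fold difference either way was found for 1 member each in R over N (all genes 9.18%) and P over N (all genes 6.71%), in both cases Cox8b, and for 0 in R over P (all genes 10.2%). Cox8b had no fragment in N, so its size there is set by the pseudocount, and its bound for R over N, given below, is under 2-fold. No member with an FPKM of at least 5 was 1.5-fold apart in any comparison. Of the 76 members, 59 (77.6%) were higher in R than in P, where 55.9% of all genes were. Higher in P than in N were 15 (19.7%), where 53.4% of all genes were, and 52 (68.4%, all genes 59.8%) were higher in R than in N. From 20 FPKM, 14.9% of members and 43.5% of all genes were higher in P than in N. With a longest transcript under 1000 bases, 19.6% of members and 35.6% of all genes were. The library labelled P held the lowest value of the 3 for 47 members (all genes 33.1%). With the assembled transcripts that carry no gene name added, 5 in place of 7 members were counted as higher and 6 in place of 8 as lower in R than in N. Ndufa12 and Ndufs4 were no longer among the higher ones, nor Ndufb11 and Atp5c1 among the lower ones.

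**Figure D2:**
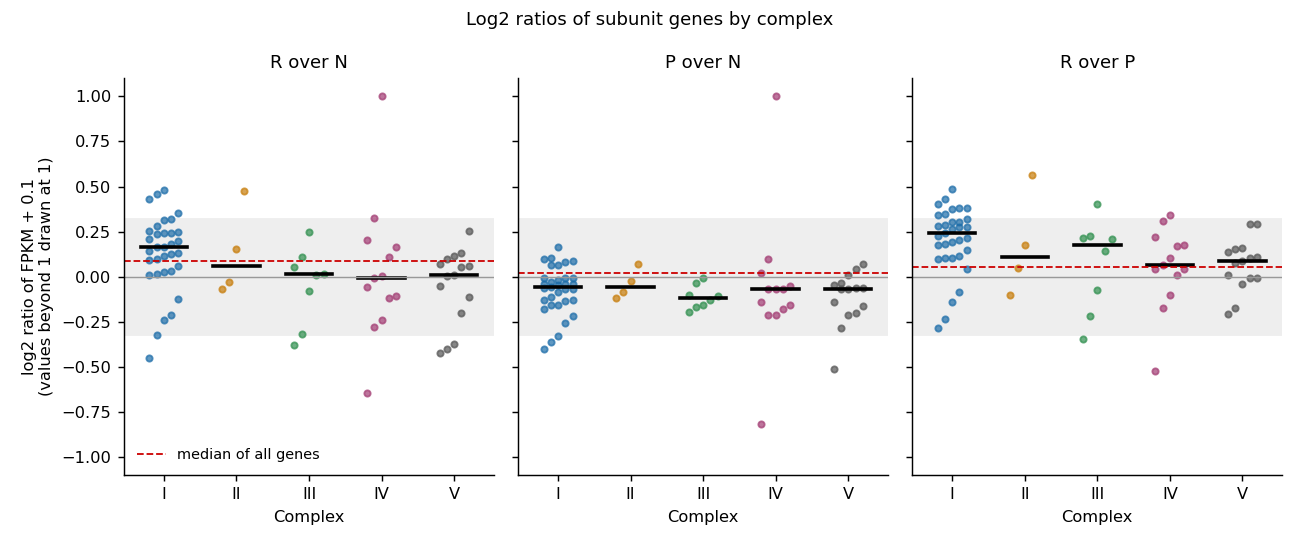
Log2 ratios of FPKM plus 0.1 for members of complexes I to V in each comparison, 1 point per gene, with black bars at the median of each complex, a dashed line at the median of all genes and grey between 20% lower and 25% higher. Complex I has the highest median in R over N (0.17) and R over P (0.24), and in P over N all 5 medians lie below 0.

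Most genes of complex I stood highest in R. The median over its 33 members was 0.17 on the log2 scale in R over N, -0.06 in P over N and 0.24 in R over P. R held the highest value of the 3 libraries for 28 of the 33 (all genes 46.8%). The counting interval of the ratio (exact 95% Clopper-Pearson interval on fragments, which covers counting error only) lay above 1 for 15 members in R over N (all genes 35.5%) and below 1 for 4 (all genes 21.0%). With values rescaled so that the median ratio of all genes was 1, the median for R over N was 0.08 in complex I and below 0 in complexes II to V. The 7 core subunits, which carry the flavin, the iron-sulfur clusters and the quinone site, had a median of 0.10 for R over N, and the 26 accessory subunits, which surround the core, one of 0.19.

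The highest ratio in complex I belonged to Ndufb4, an accessory subunit of the membrane arm on chromosome 16. It stood at 39.1 FPKM in R, 27.9 in P and 28.1 in N, and the ratio R over N was 1.39 (interval 1.18 to 1.66). R was thus above both other libraries, which lay within counting error of each other. Ndufs4, an accessory subunit whose loss causes Leigh syndrome, stood at 13.2 FPKM in R, 10.1 in P and 9.57 in N, with a ratio R over N of 1.38 (1.17 to 1.62). Its locus held an assembled transcript at 0.54, 0.86 and 2.21 FPKM in R, P and N, and with it added the ratio was 1.16. Ndufa9, an accessory subunit at the junction of the arms, stood at 25.2, 19.8 and 18.7 FPKM in R, P and N, a ratio R over N of 1.35 (1.19 to 1.52). Ndufa12, an accessory subunit of the peripheral arm, stood at 33.5, 29.3 and 26.2 FPKM in R, P and N, a ratio R over N of 1.28 (1.09 to 1.51). Here 2 assembled transcripts at 3.09, 4.07 and 7.01 FPKM in R, P and N, when added, made the ratio 1.102. The most abundant complex I gene was Ndufb9, a membrane arm subunit, with 165 FPKM in R, 145 in P and 139 in N (R over N 1.19, 1.11 to 1.27). In all of these the library labelled R was the highest.

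A few complex I genes went the other way. Ndufb11, a membrane arm subunit encoded on the X chromosome, stood at 28.8 FPKM in R, 30.6 in P and 39.3 in N, a ratio R over N of 0.73 (0.65 to 0.82). Its locus also held 2 assembled transcripts without a gene name, at 34.5, 44.9 and 33.3 FPKM in R, P and N. With these added its log2 ratio was -0.20 for R over N in place of -0.45, and 0.06 for P over N in place of -0.36. Ndufv3, an accessory subunit next to the flavin site, stood at 58.5, 71.2 and 73.2 FPKM in R, P and N (R over N 0.80, 0.72 to 0.85). The split between its transcripts hardly differed, with 69.6%, 64.9% and 68.0% of its FPKM from the shorter one in R, P and N. Ndufs8, a core subunit with iron-sulfur clusters, was low in P alone, at 43.8 FPKM in R, 32.4 in P and 42.9 in N (P over N 0.76, 0.68 to 0.86). Ndufs1, the largest core subunit, stood at 15.7, 14.7 and 13.7 FPKM in R, P and N, while its transcript with the longest sequence made up 6.90%, 19.4% and 28.2% of it in R, P and N. StringTie shares reads between such overlapping transcripts, so these shares are less certain than the gene's sum. Ndufa13 was listed at 0 in all 3 libraries, in a locus it shares with Cilp2. That locus also held 3 assembled transcripts without a gene name, at 10.6, 11.4 and 10.03 FPKM in R, P and N, so the 0 of the name does not show that the gene was silent.

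In complex II the catalytic subunits parted. Sdhb, the iron-sulfur subunit that passes electrons from succinate towards ubiquinone, stood at 43.6 FPKM in R, 29.5 in P and 31.4 in N. Its ratio was 1.39 (1.252 to 1.543) for R over N and 1.48 (1.33 to 1.64) for R over P, the highest of any member in R over P. The locus of Sdhb held an assembled transcript at 2.4, 4.4 and 1.7 FPKM in R, P and N. With it added, the ratio stayed at 1.39 for R over N but was 1.36 for R over P, below the 1.40 of Ndufb4. For P over N it was then 1.03 in place of 0.94. Sdha, the flavoprotein that oxidises succinate and the most abundant of the 4, stood at 56.7, 60.7 and 57.8 FPKM in R, P and N, a ratio R over N of 0.98 (0.93 to 1.03). Of the membrane anchors, Sdhc stood at 51.3, 45.5 and 46.2 FPKM in R, P and N (R over N 1.11, 1.02 to 1.21) and Sdhd at 47.0, 45.5 and 49.4 FPKM in R, P and N (0.95, 0.88 to 1.03). The 4 genes thus lay within a narrow range of level in R, from 43.6 to 56.7 FPKM.

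Complex III also held members on both sides. The 8 genes had medians of 0.01, -0.12 and 0.18 for R over N, P over N and R over P, and all 8 were lower in P than in N. Cyc1, a complex III subunit that the naming rule leaves out, was higher in P than in N (1.224, 1.084 to 1.385). Uqcrq, a small subunit, stood at 75.6 FPKM in R, 57.0 in P and 63.5 in N (R over N 1.19, 1.06 to 1.33), and Uqcr10, another small one, at 82.8, 71.3 and 76.8 FPKM in R, P and N (1.08, 0.97 to 1.20). Uqcrh, the hinge protein that binds cytochrome c1 and the most abundant member, stood lowest in R, with 103 FPKM against 131 in P and 134 in N (R over N 0.77, 0.71 to 0.83). Uqcrfs1, the Rieske iron-sulfur protein, was likewise lowest in R, at 42.3 FPKM against 49.3 in P and 52.9 in N (R over N 0.80, 0.74 to 0.87). For Uqcrh and Uqcrfs1, P and N lay within counting error of each other.

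Complex IV held the member with the highest mean FPKM (Cox4i1) and the one with the lowest among those that reached the filter (Cox8b). Its 13 members had medians of -0.01, -0.07 and 0.07 for R over N, P over N and R over P. Cox4i1, the ubiquitous isoform of subunit 4, stood at 327 FPKM in R, 369 in P and 386 in N (R over N 0.85, 0.81 to 0.88). Cox8a stood at 268, 288 and 325 FPKM in R, P and N (0.82, 0.78 to 0.87), and Cox6a1 at 309, 287 and 333 FPKM in R, P and N (0.93, 0.88 to 0.97). These were lower in R than in N beyond counting error. Cox5b, a subunit on the matrix side, went the other way, at 76.6 FPKM in R, 61.9 in P and 61.1 in N (1.254, 1.129 to 1.393). Cox7b, Cox6b1 and Cox7a2 had ratios R over N of 1.08, 0.99 and 0.96, with intervals that held 1.

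Several subunits have a ubiquitous isoform and one known from muscle, lung or testis, and here the ubiquitous one was the one read. Cox4i2, the isoform of lung, stood at 0.051, 0.16 and 0.027 FPKM in R, P and N. Cox6a2 of heart and muscle and Cox6b2 of testis were also under 0.3 FPKM in all libraries. These, with Ndufa13 and Ndufa4l2, were the 5 members that did not reach the filter. Just above it came Atp5s, at 1.82, 1.68 and 1.504 FPKM in R, P and N, and Cox8b and Cox7a1, both heart and muscle isoforms. Cox8b stood at 0.91 FPKM in R (6 fragments), 1.35 in P (9 fragments) and was listed at 0 in N. Against a floor of 3 fragments in N it was at least 1.97-fold higher in R and at least 2.93-fold higher in P. These bounds leave out the counting error of its own fragments, and the counting intervals began at 1.099 for R over N and 1.975 for P over N. With Cox8b at the bounds set by the floor, the medians of members and of complex IV were the same to 2 decimals. Cox7a1 stood at 1.40, 1.23 and 2.25 FPKM in R, P and N (10, 8 and 15 fragments), and its ratio R over N of 0.62 had an interval from 0.25 to 1.48. Both were too shallow for the differences to be read.

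**Figure D3:**
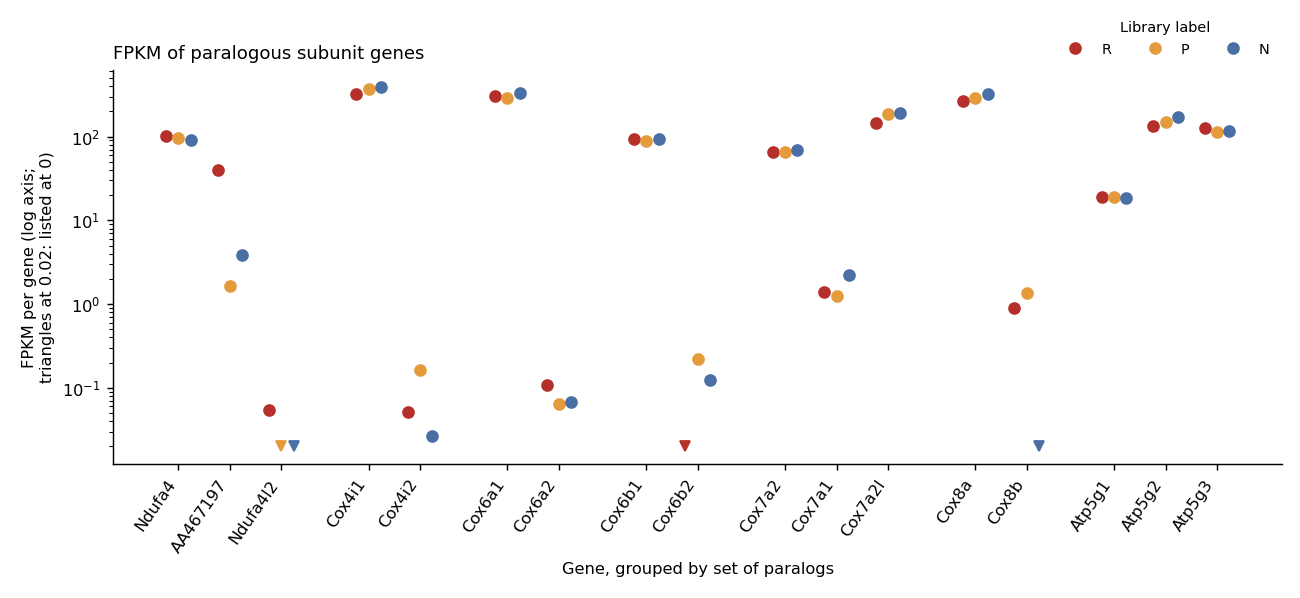
FPKM of sets of paralogous subunit genes in the libraries labelled R, P and N, on a log axis, with triangles for genes listed at 0. The ubiquitous isoforms lie far above the tissue isoforms, and AA467197, a paralog of Ndufa4, is the one gene with a wide gap between R (40.3 FPKM) and the other libraries.

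Ndufa4 and its paralogs were set side by side. Ndufa4, once counted with complex I and now known as a subunit of complex IV, stood at 102 FPKM in R, 97.1 in P and 90.6 in N (R over N 1.12, 1.02 to 1.23). AA467197 (Nmes1) is a paralog that in inflammation can take the place of Ndufa4 in complex IV. It is not a member by name and comes from a list of modulators of the chain. It stood at 40.3 FPKM in R (494 fragments), 1.64 in P (19 fragments) and 3.84 in N (44 fragments). The ratio was 10.5 (7.69 to 14.6) for R over N and 24.5 (15.4 to 40.6) for R over P. R thus stood far above both other libraries. Ndufa4l2, a paralog known from hypoxia, had 1 fragment in R and was listed at 0 in P and N. The 34 leukocyte markers in the files summed to 113 FPKM in R, 80.4 in P and 133 in N. Nearly all of the sum in P came from Itgb2, Lcp1, Cd68 and Cd14, at 35.9, 12.05, 18.0 and 12.5 FPKM. No other marker reached an FPKM of 1 in P, while 13 markers did in R and 12 in N. The part of leukocytes in the level of AA467197 was not tested.

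In complex V the lowest ratios R over N were those of Atp5d and Atp5c1, both of the catalytic part. Its 15 members had medians of 0.01, -0.07 and 0.09 for R over N, P over N and R over P, and the 5 genes of the F1 head and central stalk had -0.11, -0.14 and 0.07. Atp5b, the catalytic beta subunit and one of the highest members, stood at 343 FPKM in R, 326 in P and 342 in N (R over N 1.00, 0.98 to 1.03). Atp5d, the delta subunit of the central stalk, stood at 134, 155 and 179 FPKM in R, P and N (0.75, 0.71 to 0.79). Atp5c1, the gamma subunit that turns inside the head, stood at 66.6, 61.8 and 88.1 FPKM in R, P and N (0.76, 0.70 to 0.81), low in both R and P. The locus of Atp5c1 held assembled transcripts at 20.5, 29.1 and 17.1 FPKM in R, P and N, and with them added its log2 ratio R over N was -0.27 in place of -0.40. For P over N it was then -0.21 in place of -0.51, and for R over P -0.06 in place of 0.11. For Atp5d the same step gave -0.33 in place of -0.42.

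The c ring, which turns as protons pass, is made from 3 genes that encode the same mature protein. Atp5g1 stood at 19.3 FPKM in R, 19.2 in P and 18.6 in N, Atp5g2 at 134, 151 and 173 FPKM in R, P and N, and Atp5g3 at 127, 113 and 118 FPKM in R, P and N. Only Atp5g2 was lower in R than in N beyond counting error (0.77, 0.72 to 0.82), so that Atp5g2 and Atp5g3 lay close in R and further apart in N. Of the membrane and peripheral stalk subunits, Atp5k (subunit e) stood at 41.7, 34.1 and 34.9 FPKM in R, P and N (R over N 1.19, 0.98 to 1.46) and Atp5o, which joins the stalk to the head, at 81.8, 66.8 and 74.8 FPKM in R, P and N (1.09, 1.01 to 1.19).

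Cox7a2l matches the rule by name but is known as a factor of supercomplex formation, and it was kept out of the medians by complex, as were Atp5s, Atp5sl and Ndufa4l2. It stood at 146 FPKM in R, 186 in P and 190 in N, a ratio R over N of 0.77 (0.73 to 0.81). P and N lay within counting error of each other, as for Uqcrh.

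The ratio R over N followed the level of the gene. Across the 76 members, which share the same 3 libraries, Pearson's r between log2 mean FPKM and the log2 ratio was -0.51 and Spearman's rho -0.52. Cox8b, with the lowest mean FPKM and a ratio set by the pseudocount, enters Pearson's r. The 14 members with a mean FPKM of at least 100 had a median of -0.12 for R over N and the 62 others 0.11. All genes showed the same order, with -0.16 for the 419 genes from 100 FPKM and 0.09 for the 10045 below. In complex I, Ndufb9 alone had a mean FPKM of at least 100. Level and complex were not separated, and the part of either in the medians by complex was not tested. By length, the 51 members whose longest transcript was under 1000 bases had a median of 0.10 and the 25 longer ones 0.03, where all genes had -0.06 (923 genes) and 0.10 (9541 genes).

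**Figure D4:**
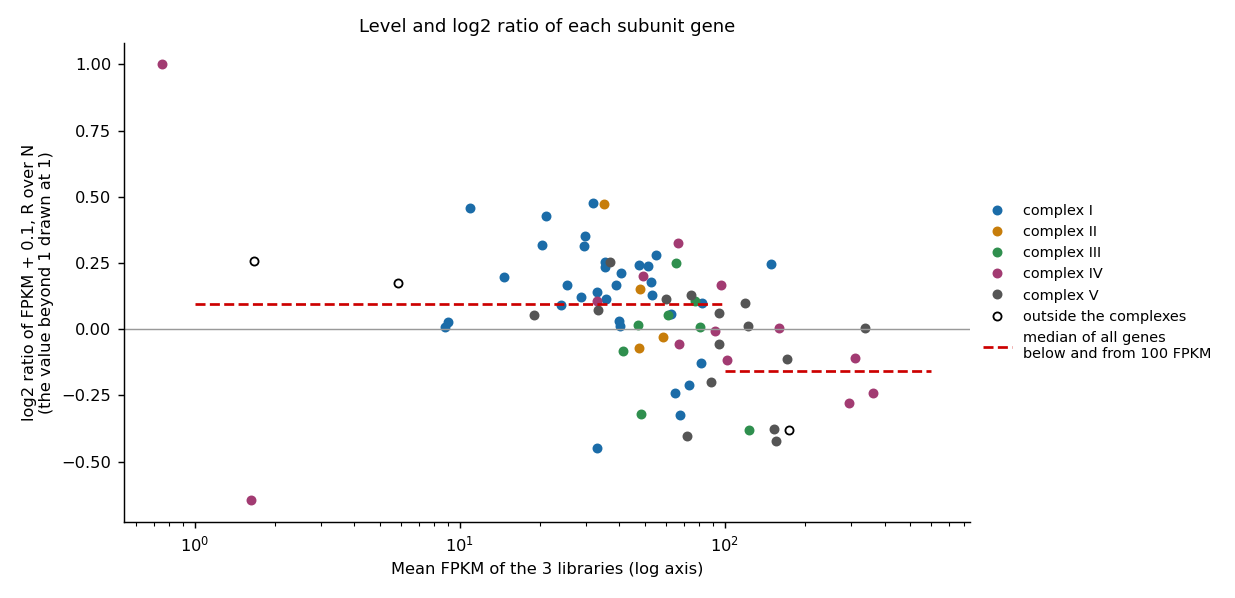
Log2 ratio R over N of each member against its mean FPKM over the 3 libraries, by complex, with dashed lines at the medians of all genes below and from 100 FPKM. Of the 14 members from 100 FPKM, 5 lie above 0, and complex I genes, most of them between 10 and 100 FPKM, lie mostly above 0.

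Subunits encoded in mitochondrial DNA carry no gene names in the files and were read through 3 assembled transcripts on chromosome M, picked after the files were seen. The one from chrM:5344-15283 spans 11 protein genes from mt-Co1 to mt-Cytb, and stood at 971 FPKM in R, 750 in P and 819 in N. Its ratio was 1.19 (1.18 to 1.19) for R over N, 0.92 (0.91 to 0.92) for P over N and 1.29 (1.29 to 1.30) for R over P. The one over mt-Nd2 (chrM:3914-4937) stood at 542, 429 and 455 FPKM in R, P and N, a ratio R over N of 1.19 (1.16 to 1.23). The one over the ribosomal RNAs and mt-Nd1 (chrM:69-3699) stood at 388, 367 and 371 FPKM in R, P and N (1.05, 1.03 to 1.07). In all 3 R was highest and P lowest, as R was for 28 and P for 22 of the 33 nuclear genes of complex I.

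Genes that act around the chain were described from lists. Of 46 listed assembly factors, 42 reached the filter, with medians of 0.14, -0.10 and 0.26 for R over N, P over N and R over P, and 13 were at least 25% higher and 1 at least 20% lower in R than in N (all genes 25.4% and 14.6%). Among them Foxred1, a complex I assembly factor, stood at 10.3, 6.22 and 6.91 FPKM in R, P and N, and Uqcc2, the highest of the list, at 145, 159 and 171 FPKM in R, P and N. The 13 enzymes of the tricarboxylic acid cycle that reached the filter had medians of 0.15, -0.02 and 0.09. Of these only Ogdh was at least 25% higher and only Dlst at least 20% lower in R than in N, both parts of the oxoglutarate dehydrogenase complex. Ogdh stood at 17.3, 12.4 and 13.8 FPKM in R, P and N, and Dlst at 6.82, 17.0 and 12.4 FPKM in R, P and N. The 12 regulators of mitochondrial biogenesis that reached it had medians of -0.01, -0.09 and 0.11, with Tfam, which packs and transcribes mitochondrial DNA, at 7.11, 7.18 and 7.31 FPKM in R, P and N. Pprc1, a coactivator of NRF1, stood at 4.12, 1.62 and 3.18 FPKM in R, P and N.

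The mobile carrier and its docking subunit, both outside the rule, were higher in R. Cycs (cytochrome c) stood at 12.3 FPKM in R, 5.65 in P and 6.28 in N, a ratio R over N of 1.95 (1.72 to 2.23). Cyc1, the cytochrome c1 of complex III, stood at 34.3, 27.5 and 22.5 FPKM in R, P and N, a ratio of 1.52 (1.36 to 1.71). Both exceeded the ratio of every nuclear member above 5 FPKM. Usmg5, a complex V subunit under an older name, stood at 114, 92.6 and 95.1 FPKM in R, P and N (1.20, 1.08 to 1.33).

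Of the 8 modulators measured, 2 were at least 25% higher in R than in N (all genes 25.4%) and 5 at least 20% lower (all genes 14.6%). Irg1, which makes itaconate, an inhibitor of succinate dehydrogenase, stood at 3.14 FPKM in R (156 fragments), 0.063 in P (3 fragments) and 0.57 in N (26 fragments). Its ratio R over N was 5.55 (3.68 to 8.84). The other higher one was AA467197. Higd1a, a hypoxia-induced factor of the chain, stood at 16.9 FPKM in R, 37.6 in P and 36.1 in N, a ratio R over N of 0.47 (0.42 to 0.52). Pdk1, which turns pyruvate away from the cycle, and Egln3, an oxygen sensor, both known as targets of Hif1a, had ratios R over N of 0.75 each. Hif1a stood at 4.70, 9.35 and 6.45 FPKM in R, P and N. Irg1 is known from activated macrophages. The 7 macrophage and dendritic markers summed to 49.95, 31.1 and 70.9 FPKM in R, P and N, and 4 of them reached the filter. Among these Mpeg1 was higher in R than in N, at 6.60 FPKM in R, listed at 0 in P and 0.70 FPKM in N. The other 3 were not, with Lyz2 as given above, Cd68 at 19.2, 18.0 and 21.4 FPKM and Cd14 at 17.1, 12.5 and 18.4 FPKM in R, P and N. The part of other cells in these values was not tested.

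**Figure D5:**
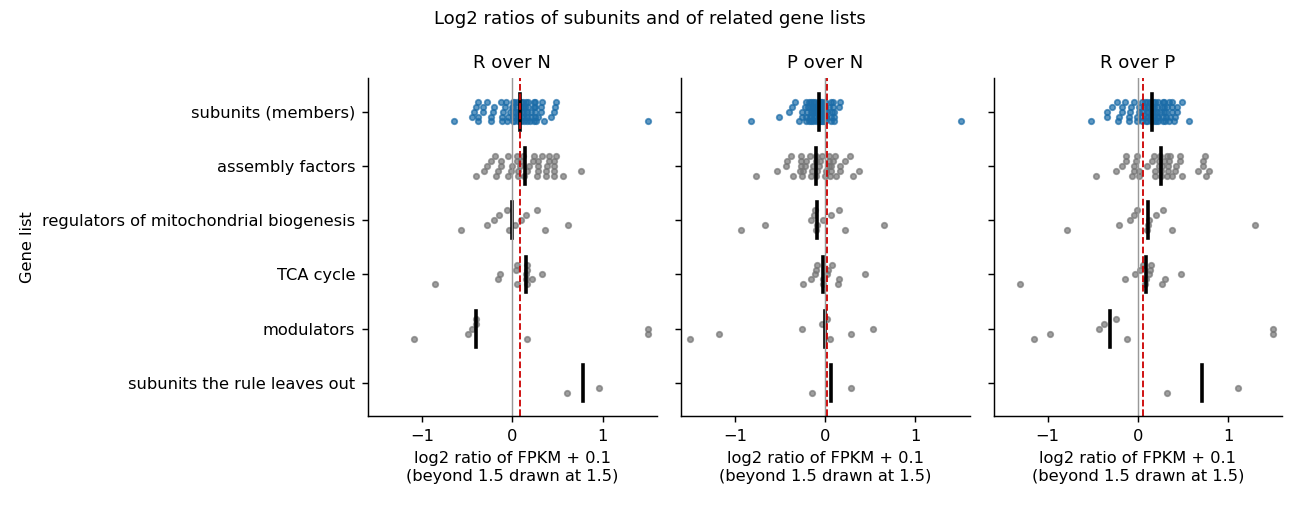
Log2 ratios of FPKM plus 0.1 in each comparison for the 76 members and for genes of 5 related lists, 1 point per gene, with black bars at the medians and a dashed line at the median of all genes. Members other than Cox8b and Cox7a1 lie in a narrow band around 0, while the modulators Irg1 and AA467197 lie above 1.5 in R over N and R over P.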

How the data were processed

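Total RNA of CSCsp was sequenced in 3 libraries, 1 per condition, and grouped by the treatment given in the labels. Read pairs were aligned by the authors with HISAT2 2.2.0. StringTie, for which the submitters' processing notes give version 2.1.3 but the file headers 2.1.5, then quantified RefSeq transcripts along with newly assembled ones. Coverage, FPKM and TPM per transcript were deposited by the authors, where FPKM equals coverage over the aligned bases summed for that library. Read filters and strand settings were not given in the sources used here. The notes name mm9, but 99.4% of 23320 genes, and all 80 members compared, overlapped the gene of that name in GRCm38, so coordinates are given as GRCm38.

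FPKM was summed per gene over transcripts that carry the gene's name. Assembled transcripts carry none and were added only as an alternative. Fragments are aligned bases divided by 300, the most common amount on low transcripts. Intervals are exact 95% intervals, Poisson for FPKM and Clopper-Pearson for ratios, from fragments. They cover counting error only, and for genes with several transcripts they rest on fragments summed over transcripts. Log2 ratios used a pseudocount of 0.1 FPKM, which understates differences of low genes. With 1 library per condition no test was run. The counts and intervals were run on simulated data that held counting error alone, so variation between cultures was not covered.

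Genes were named by a fixed rule: in each complex the highest mean, the 2 highest and 2 lowest ratios R over N, any member 1.5-fold apart, and paralog sets. A few further examples were picked after their values were seen. Members and lists were chosen with earlier results of these data known. Cox7b2 and Cox8c are placed in the files by locus only, were listed at 0 and were not counted. The list of mitochondrially encoded subunits matched no name and was read by position. Of 14 named genes each in the lists of biogenesis regulators and the tricarboxylic acid cycle, 12 and 13 reached 1 FPKM. Erythroid markers (5 listed, 3 reached) had a median of -0.35 and 4T1 epithelial markers (8 listed, 7 reached) of -0.48 for R over N. The medians for R over N of the leukocyte lists were -0.01 (pan-leukocyte), -0.13 (macrophage and dendritic), -0.55 (neutrophil) and 2.16 (T and NK, 1 gene), and no B cell marker reached 1 FPKM. Of subunits under older names 2 were measured, with a median of 0.16.

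Alternatives were RefSeq transcripts alone, TPM, pseudocounts of 1 and 0.01, no filter, filters of 5 and 20 FPKM, rescaling to equal medians over 9236 genes, the highest transcript per gene, unshared loci, N and P exchanged, and assembled transcripts added. The filter of 20 FPKM and the assembled transcripts were chosen after seeing the data. Software was Matplotlib 3.10.9, SciPy 1.17.1, pandas 2.3.3 and NumPy 2.4.6 under Python 3.11.15.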

Additional observations from a re-analysis of the deposited data

How the results depend on the processing

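Of 264 values for medians and counts over all alternatives, 242 stayed near the main value (medians within 0.1 on the log2 scale, counts within 1.5 times). Most medians for R over N and P over N were under 0.1 in size, so a changed sign could count as near. From exchanging N and P came 14 of the other 22 values. After rescaling, the median of members for R over N was -0.004 in place of 0.081, and 6 members in place of 12 were counted as at least 25% higher in R than in P. Members at least 20% lower in P than in N numbered 3 with TPM and 3 with assembled transcripts added, in place of 5. Members at least 25% higher in P than in N numbered 3 with no filter, 2 with the highest transcript, and 0 with filters of 5 and of 20 FPKM, in place of 1. With no filter 5 in place of 3 were at least 20% lower in R than in P. With assembled transcripts added, Ndufb11 had a log2 ratio P over N of 0.056 in place of -0.36. The cause of these shifts was not tested.

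With N and P exchanged, R over N takes the values of R over P. Members then numbered 12 higher and 3 lower for R over N, 5 higher and 1 lower for P over N, and 7 higher and 8 lower for R over P. The P over N median of members was 0.068, and those of complexes I to V were 0.060, 0.055, 0.119, 0.068 and 0.069. The complex III median was 0.176 in R over N and 0.012 in R over P. For Cox8b the log2 ratio was then -0.52 in R over N, -3.86 in P over N and 3.34 in R over P, the sizes of both P over N and R over P being set by the pseudocount against a library with no fragment. For R over N and P over N in turn, Cox7a1 had 0.17 and 0.82 and Atp5c1 had 0.11 and 0.51. Ndufb11 had 0.36 for P over N. The median of complex I stayed above 0 in R over N and R over P under every alternative run.

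RefSeq transcripts alone gave the main values, since only these carry names, and are not among the values counted above. No paired analysis was possible because each condition has 1 library, and leaving out a replicate was not possible for the same reason. Depth limits the genes under 5 FPKM, where Cox8b and Cox7a1 rest on 15 fragments or fewer per library.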
